A study of Daphnia magna with 12 samples.

Results

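The higher exposure groups of a water flea experiment, TBEP at 147 and at 1470 µg/L, were set together against unexposed controls. The members were chosen by their labelled dose: 6 exposed and 3 control arrays, 9 of the 12 arrays of the series. Each array measured whole-organism RNA from 10 pooled female Daphnia magna, with 3 biological replicates per group. The animals entered the exposure as neonates less than a day old and stayed for 21 days in culture medium alone (control) or in medium with tris(2-butoxyethyl) phosphate (TBEP) at a dose the submitters call sublethal. The third exposed group, at 14.7 µg/L, was left out. Every group was kept under the same light cycle and fed green algae and a YCT preparation.

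Daphnia magna is a freshwater crustacean that under good conditions consists of females reproducing without males, and it is a standard animal of aquatic toxicity testing. A chronic test of this kind follows an animal from birth through maturation and egg production. RNA of a whole female therefore mixes gut, fat body, ovary, muscle and the embryos that may be in the brood pouch, and a transcript present in fewer cells cannot be told apart from one present at a lower level in the same cells. TBEP belongs to the organophosphate esters that serve as flame retardants and plasticisers. The array probes carry design identifiers only: 0 of the probe names matched any of the 28335 rows of the RefSeq gene table for assembly ASM2063170v1.1. No probe could be given a gene, a pathway or a sequence, so the labelled tissue was not checked against marker genes, and transcripts are described below by probe.

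The array held 14338 probes. A probe was tested where its signal was well above background, as the scanner software flags it, on all 3 arrays of at least 1 of the 3 groups, which left 9997 probes; 8569 of them were well above background on all 9 arrays. Signals are given as log2 of the processed signal minus the log2 of the 75th percentile of that array, so that 0 is the level of a fairly bright probe and every unit is a doubling.

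The exposed arrays were on average dimmer than the control arrays, with overlap. Control pools had 10187 to 11125 probes well above background, pools at 147 µg/L 8923 to 10569 and pools at 1470 µg/L 9541 to 10983. The mean was 9981 ± 751 (SD, n = 6) in exposed and 10769 ± 508 (SD, n = 3) in control pools (exact permutation test, two-sided, p = 0.167). The 75th percentile of the signal was 209.98 ± 29.7 intensity units (SD, n = 6) in exposed and 249.4 ± 8.94 (SD, n = 3) in control pools (exact permutation test, p = 0.0952). The median signal was 33.6 ± 4.96 (SD, n = 6) against 40.5 ± 2.70 (SD, n = 3), with an exact permutation p of 0.0476. Adjusted over these 3 tests the exact p-values were 0.167, 0.143 and 0.143, so none passed. The replicate number also marks slide and row. All 6 exposed pools had fewer probes well above background than the control of their number, and with sides exchanged only within a number the exact permutation p was 0.0741 (27 arrangements), 0.148 for the 75th percentile and 0.148 for the median signal. The difference in probes was -1073 on the slide with replicates 1 and 2 and -218 on the other. All 3 pools at 147 µg/L lay below all 3 controls in the 75th percentile, while 1 pool at 1470 µg/L lay above them.

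**Figure D1:**
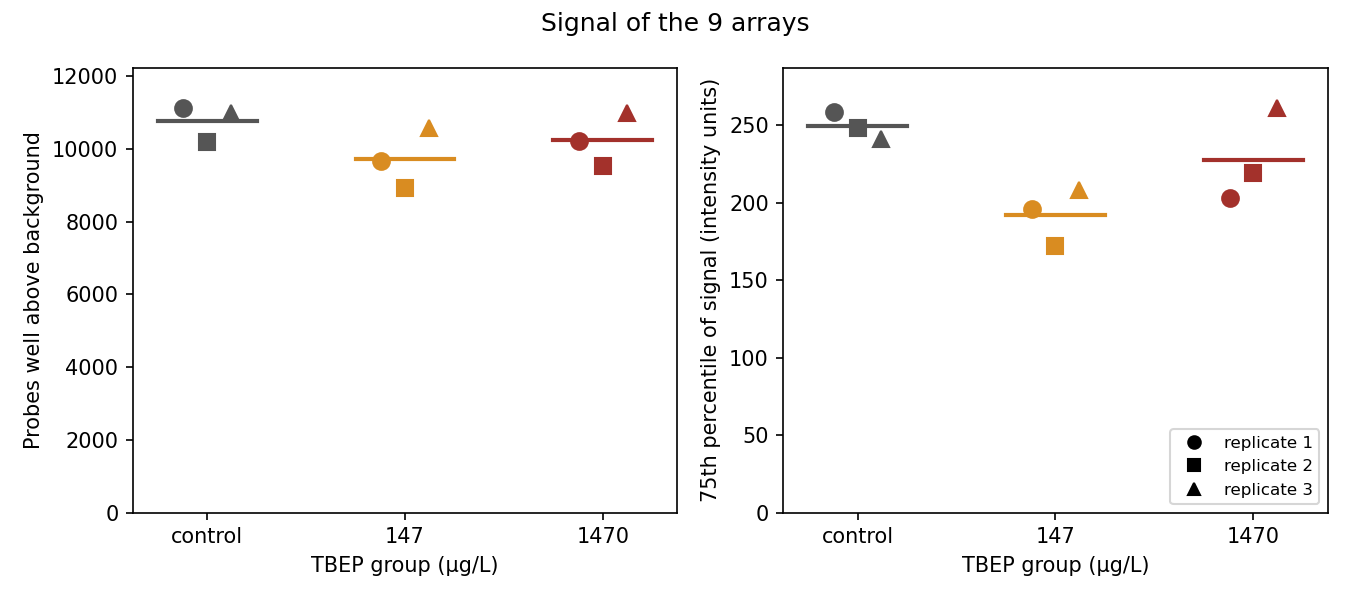
Probes well above background (left) and 75th percentile of the processed signal in intensity units (right) on each of the 9 arrays, by group. Points are arrays, shaped by replicate number, and bars are group means of 3 arrays. The exposed pools reach down to 8923 probes and the lowest control has 10187.

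Over all tested probes, exposed pools correlated with control pools about as closely as pools of a group did among themselves. The correlation across probes had a median of 0.982 (range 0.969 to 0.990) over the 18 pairs of a control and an exposed array. It was 0.984 over the 3 pairs of controls, 0.978 within 147 µg/L, 0.974 within 1470 µg/L and 0.980 over the 9 pairs that join the doses. Probes are not independent replicates and these values carry no test. Exposed pools of one dose differed from each other slightly more than controls did: the median standard deviation of a probe was 0.210 in controls, 0.262 at 147 µg/L and 0.281 at 1470 µg/L.

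Which transcripts do both doses share against control? No probe passed the test. limma called 0 of 9997 probes (0%) at an adjusted p under 0.05, and the smallest adjusted p was 0.999. At an unadjusted p under 0.05 there were 245 probes (2.45%), 92 with higher (0.92%) and 153 with lower (1.53%) values in exposed pools; 17 (0.17%) and 72 (0.72%) of these differed by at least 1.5-fold. Uniform p-values would give 5% of probes at that level. Of the 245, 37 had a p under 0.01 and 3 a p under 0.001. The number of higher probes depended on single arrays: it was 52 with control replicate 3 left out and 166 with control replicate 2 left out, and among the exposed pools 54 with replicate 1 at 147 and 255 with replicate 3 at 1470 µg/L left out.

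The probe with the smallest p was DM10364P2, whose exposed signals were all below its control signals. Its log2 relative signal was 0.55, 1.04 and 1.01 in control replicates 1 to 3. It was -0.50, -0.35 and 0.10 in the 147 µg/L pools and -0.09, -0.60 and -0.14 in the 1470 µg/L pools. The highest exposed pool lay below the lowest control, and the doses overlapped each other. In intensity units these were 380, 512 and 486 in controls against 134 to 238 in the exposed pools. The pooled difference was -1.13 (SE 0.187, 95% interval -1.55 to -0.72, n = 6 against 3), a 2.19-fold lower signal, with an unadjusted p of 0.000128 and an adjusted limma p of 0.999. The doses taken singly gave -1.12 (SE 0.229) for 147 and -1.15 (SE 0.229) for 1470 µg/L, and the difference between the doses was -0.02 (95% interval -0.54 to 0.50). On the slide with replicates 1 and 2 the pooled difference of DM10364P2 was -1.19, and on the slide with replicate 3 it was -1.03. The probes named here and below were chosen by their p on these same arrays, so their values by dose and slide are a description.

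DM11327P1 was the other lower probe named by rank. Its log2 relative signal was -0.58, -0.04 and -0.59 in controls, -1.44, -0.96 and -1.19 in the 147 µg/L pools and -1.11, -1.37 and -1.57 in the 1470 µg/L pools. No exposed pool reached the control range, and again the doses overlapped. The pooled difference was -0.87 (SE 0.179, 95% interval -1.27 to -0.47), or 1.83-fold lower, with an unadjusted p of 0.000703 and an adjusted limma p of 0.999. It was -0.79 at 147 and -0.95 at 1470 µg/L for DM11327P1, with -0.91 on the first slide and -0.79 on the second.

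Among higher probes DM07418P3 had the smallest p. It gave 1.29, 1.23 and 1.30 in the controls, which lay close together. At 147 µg/L it gave 1.71, 2.07 and 2.18, and at 1470 µg/L 2.12, 2.09 and 1.72. All 6 exposed pools lay above the controls on this scale, although the raw signal of replicate 1 at 147 µg/L, 639 intensity units, was close to the 634 of control replicate 1, whose array was brighter. The pooled difference of DM07418P3 was 0.70 (SE 0.143, 95% interval 0.38 to 1.02), a 1.63-fold higher signal with an unadjusted p of 0.000628 and an adjusted limma p of 0.999. It was 0.71 at 147 and 0.70 at 1470 µg/L, 0.73 on the first slide and 0.65 on the second.

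DM01498P1, a bright probe, was next. It gave 4.16, 4.70 and 4.42 in controls, 5.25, 5.30 and 5.30 in the 147 µg/L pools and 5.35, 5.01 and 4.84 in the 1470 µg/L pools. The exposed pools all lay above the controls, and those at 147 µg/L lay closest together, with an SD of 0.03 (n = 3). The pooled difference was 0.75 (SE 0.164, 95% interval 0.38 to 1.12), or 1.68-fold higher, with an unadjusted p of 0.00105 and an adjusted limma p of 0.999. DM01498P1 differed by 0.86 at 147 and 0.64 at 1470 µg/L, and the difference between the doses was -0.22 (95% interval -0.64 to 0.21).

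**Figure D2:**
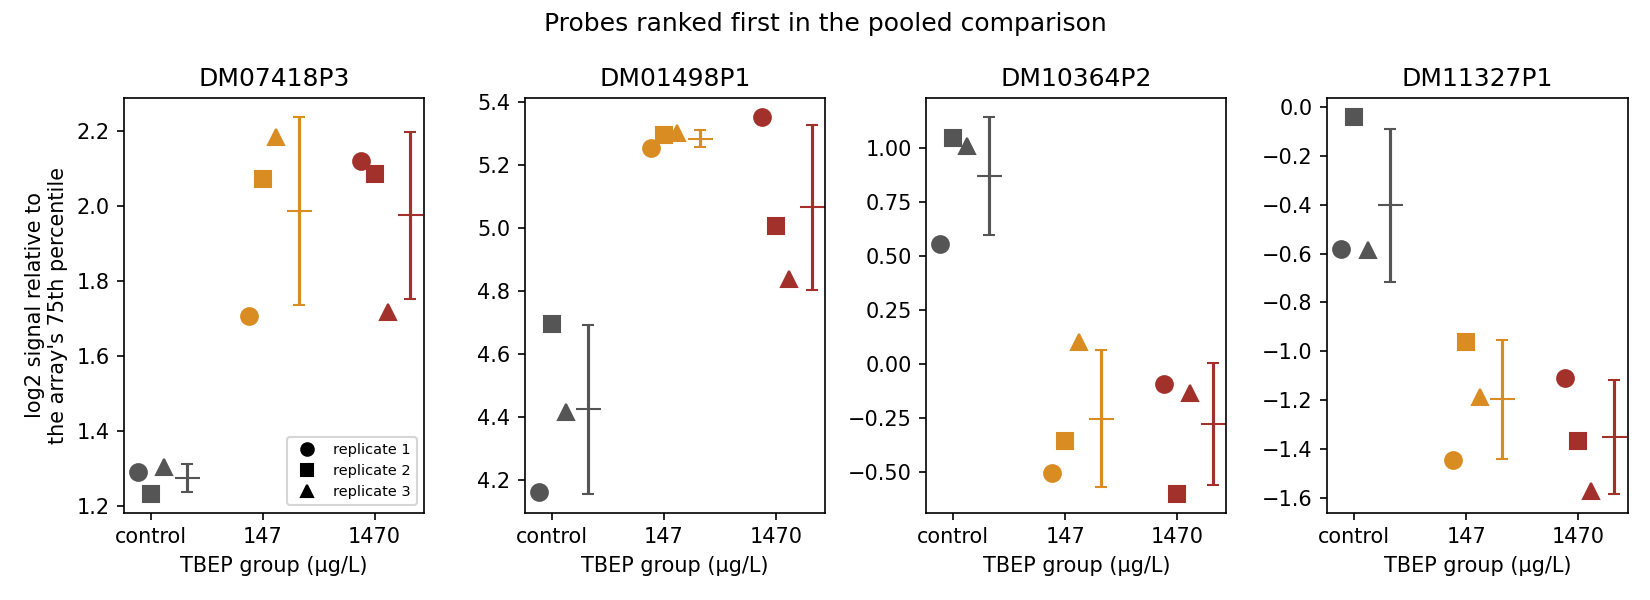
Log2 signal, with the 75th percentile of each array as 0, for the 2 higher and 2 lower probes with the smallest p in the pooled comparison, on the 9 arrays. Points are arrays, shaped by replicate number. The bar beside each group is its mean with 1 SD (n = 3), and each panel has its own axis. In all 4 panels both doses lie on the same side of the 3 controls without overlap, and none of the 4 probes passed adjustment.

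**Figure D3:**
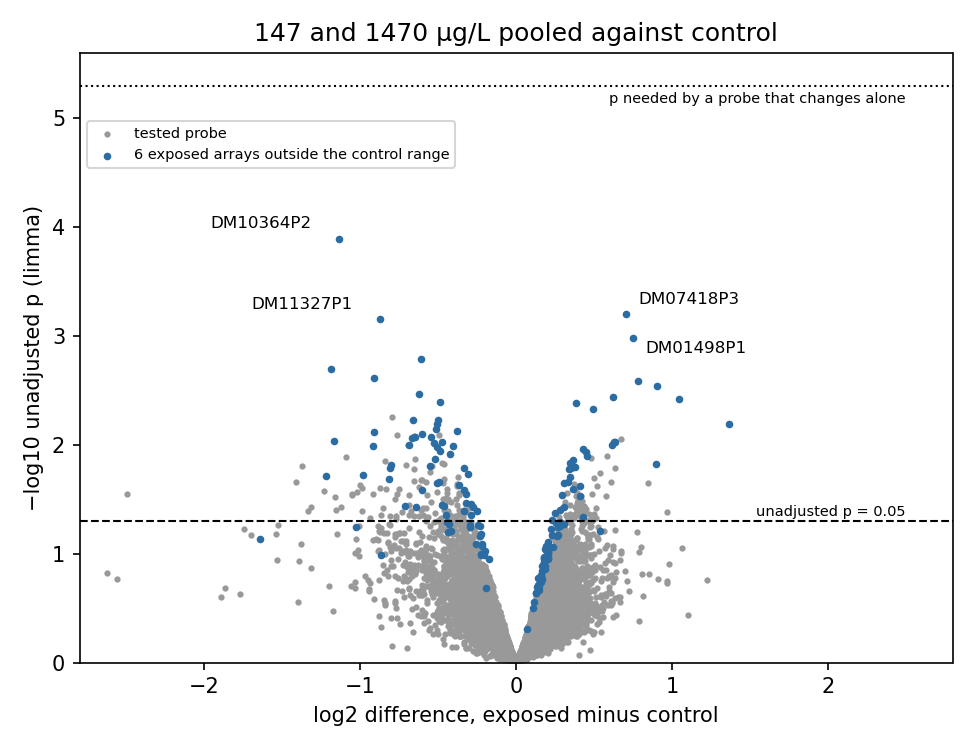
Difference of the 6 exposed from the 3 control arrays (log2, x axis) against −log10 of the unadjusted limma p (y axis) for the 9997 tested probes. Blue points are the 156 probes whose 6 exposed arrays all lie outside the control range. The dashed line is an unadjusted p of 0.05 and the dotted line the p that a probe changing alone would need, which no probe reaches.

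Array by array, 156 probes (1.56%) had all 6 exposed pools outside the range of the 3 controls, 82 above (0.82%) and 74 below (0.74%). Of these, 85 were among the 245 probes with an unadjusted p under 0.05. The 92 higher probes of the 245 had a median log2 difference of 0.41, and 33 of them had no overlap. The 153 lower ones had a median of -0.56, and 52 had no overlap. With the probes that were not well above background on any array of one side set to their lower bound (1 higher and 6 lower), both medians stayed at 0.41 and -0.56. The higher ones were bright and the lower ones dim: their median control level was 0.885 and 0.129 times the array's 75th percentile. Of the higher ones 86 of 92 were well above background on all 9 arrays, and of the lower ones 77 of 153.

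The doses were also set against control singly, and these comparisons share the 3 controls with each other and with the pooled one. At 147 µg/L limma called 0 of 9997 probes (0%), with a smallest adjusted p of 0.730 and 341 probes (3.41%) at an unadjusted p under 0.05, 163 higher (1.63%) and 178 lower (1.78%), of which 69 (0.69%) and 108 (1.08%) differed by at least 1.5-fold. At 1470 µg/L it called 0 (0%), with a smallest adjusted p of 0.9996 and 142 probes (1.42%), 28 higher (0.28%) and 114 lower (1.14%), of which 11 (0.11%) and 59 (0.59%) differed by at least 1.5-fold. The 3 exposed pools lay outside the range of the controls in 895 probes (8.95%) at 147 and 527 (5.27%) at 1470 µg/L, where fewer arrays have to separate than with 6. The 92 probes that were higher in the pooled comparison had median differences of 0.48 at 147 and 0.35 at 1470 µg/L, and the 153 lower ones -0.58 and -0.52. Since the probes were selected on the mean of both doses, these medians are a description.

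Set directly against each other, the doses did not differ in any probe that passed. The difference itself used the 6 exposed arrays, while the spread of a probe was taken from all 9 arrays, controls included. limma called 0 of 9997 (0%) for 1470 against 147 µg/L, with a smallest adjusted p of 0.9996 and 183 (1.83%) at an unadjusted p under 0.05, 56 higher (0.56%) and 127 lower (1.27%) at 1470 µg/L; 26 (0.26%) and 62 (0.62%) differed by at least 1.5-fold. In 371 probes (3.71%) the doses did not overlap. Fitted with the 6 exposed arrays alone, limma called 0 of 9997 probes, with 36 higher and 88 lower at an unadjusted p under 0.05. Among the 245 probes of the pooled comparison, 15 (6.12%) also had an unadjusted p under 0.05 between the doses in the fit of 9 arrays. Both tests divide by the spread of the same probe, so the shares of 6.12% and 1.83% are not independent, and their difference was not tested.

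The probes ranked first at 147 µg/L show how far a dose could depart from the shared level. DM11927P1 gave 752, 574 and 881 intensity units in controls, 1326, 1319 and 1980 in the 147 µg/L pools and 1029, 903 and 1181 in the 1470 µg/L pools. Both doses lay above control, and 147 lay above 1470 µg/L without overlap. The log2 difference was 1.44 (SE 0.207) at 147 and 0.65 (SE 0.207) at 1470 µg/L. At 147 µg/L the unadjusted limma p was 7.30e-05 and the adjusted one 0.730. The pooled difference of 1.04 had a larger error (SE 0.277, 95% interval 0.43 to 1.66), since the distance between the doses, -0.80 (95% interval -1.27 to -0.33), counts as spread when they form one side. DM11927P1 thus had rank 1 by p at 147 µg/L and rank 12 in the pooled comparison.

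DM09143P1 differed more between the doses. Its signal was 77.6, 54.7 and 76.4 intensity units in controls, 110, 123 and 159 in the 147 µg/L pools and 86.7, 59.3 and 109 in the 1470 µg/L pools. On the relative log2 scale the 147 µg/L pools lay above the controls and the 1470 µg/L pools overlapped them. The difference was 1.29 (SE 0.234) at 147, 0.40 (SE 0.234) at 1470 µg/L and 0.84 (SE 0.311) pooled, with adjusted limma p-values for DM09143P1 of 0.990, 0.9996 and 0.999.

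DM04870P2 was dim throughout. It gave 17.4, 16.6 and 19.3 intensity units in controls, 4.91, 5.15 and 8.46 in the 147 µg/L pools and 7.97, 10.5 and 13.3 in the 1470 µg/L pools. All 6 exposed pools lay below the controls, but none at 147 and 1 at 1470 µg/L was well above background. Against the lowest signal that counted as measured, the value at 147 µg/L was lower by a factor of at least 1.997. The fitted log2 difference at 147 µg/L, -1.19, had an adjusted limma p of 0.990. The pooled log2 difference of DM04870P2 was -0.91 (SE 0.225), with an adjusted limma p of 0.999. With normexp background correction, which added an offset of 50 to signals, its difference at 147 µg/L changed sign, to 0.10.

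At 1470 µg/L, DM10364P2, DM07418P3 and DM01498P1 were again among the 4 probes named, and DM10695P1 was the other lower one. DM10695P1 gave 25.9, 24.6 and 22.5 intensity units in controls, 16.3, 11.2 and 17.3 in the 147 µg/L pools and 12.4, 12.4 and 16.9 in the 1470 µg/L pools. All exposed pools lay below the controls, with 2 of 3 pools well above background at each dose. The log2 difference of DM10695P1 was -0.68 (SE 0.148) at 1470, -0.34 (SE 0.148) at 147 µg/L and -0.51 (SE 0.152) pooled, with adjusted limma p-values of 0.9996, 0.990 and 0.999. Its difference at 1470 µg/L depended on the processing: over the alternatives it ranged from -0.76 to -0.10, and from -0.73 to -0.63 when 1 array was left out.

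Large pooled differences were mostly uncertain ones. There were 5 probes at least 2-fold higher (0.05%) and 45 at least 2-fold lower (0.45%). Of the 45 lower ones, 24 were well above background on all 3 control arrays but not on all 6 exposed arrays. Where signal was required on all 9 arrays, 3 higher and 21 lower probes were left. In 4 of the 50 one side had no array well above background, and at their bounds 4 higher and 42 lower remained past 2-fold. Their standard errors had a median of 0.565, against 0.191 over all tested probes. In 8 of the 50 all 6 exposed pools lay outside the control range, in 12 it was 5 pools, in 15 it was 4 and in 15 it was 3 or fewer. Leaving out 1 array changed the 5 higher ones to between 3 and 39, with 39 when control replicate 2, 17 when control replicate 1 and 16 when control replicate 3 was left out. Among the 50, only DM10364P2 and DM11927P1 were at least 2-fold, without overlap and well above background on all 9 arrays.

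Some of the 50 are named here after their values were seen. The largest difference without overlap was that of DM12170P3, with 115, 111 and 163 intensity units in controls, 79.5, 26.2 and 4.01 in the 147 µg/L pools and 65.5, 58.6 and 49.7 in the 1470 µg/L pools. The log2 difference was -1.64 (SE 0.818, with an adjusted limma p of 0.999), -0.73 on the slide with replicates 1 and 2 and -3.48 on the other, where replicate 3 at 147 µg/L was far below the rest. DM04955P2, among the higher ones, gave 206, 44.5 and 213 intensity units in controls, 234, 255 and 254 in the 147 µg/L pools and 340, 87.3 and 245 in the 1470 µg/L pools. Replicate 2 was the lowest pool both in control and at 1470 µg/L, and the groups overlapped. Its pooled log2 difference was 1.07 (SE 0.564), 1.46 on the slide that holds replicate 2 and 0.28 on the other.

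Few probes were detected on one side alone. There were 8 probes well above background on all 3 control and 0 of the 6 exposed arrays, and 0 on all 6 exposed and 0 of the 3 control arrays. The counts ask different numbers of arrays of each side, and the 8 probes were tested only because the control group passed the filter, so they carry no direction. Their control signals were 9.05 to 21.3 intensity units, near the limit, and their folds were at least 1.25 to 1.809 lower. The smallest adjusted limma p of their fitted differences was 0.999. An example, chosen after its values were seen, is DM00068P2, with 14.0, 14.3 and 11.3 intensity units in controls and 2.45 to 7.76 in the exposed pools, at least 1.70-fold lower. The reverse direction came closest in DM08340P3, with 6.05, 2.34 and 7.03 in controls, where no array was well above background, against 5.83 to 15.3 in the exposed pools, where 5 of 6 were. It was at least 1.856-fold higher, and its fitted pooled log2 difference of 1.37 had an adjusted limma p of 0.999.

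The direction of the ranked probes followed their brightness. In the dimmest quartile of tested probes (median signal 17.8 intensity units) 21 were higher and 91 lower at an unadjusted p under 0.05. In the second quartile (median 53.7) the numbers were 13 and 33, in the third (median 202) 18 and 25, and in the brightest (median 1475) 40 and 4. The median log2 difference of all probes in a quartile moved the same way, from -0.07 in the dimmest through -0.02 and -0.01 to 0.06 in the brightest. In the dimmest quartile it was -0.08 for either dose, and in the brightest 0.06 for 147 and 0.05 for 1470 µg/L.

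That pattern also depended on how signals were scaled. With each array's median in place of the 75th percentile it stayed, with 31 higher and 75 lower probes in the dimmest quartile and 55 and 4 in the brightest. With quantile normalization, which gives all arrays the same distribution, the dimmest quartile had 50 higher and 55 lower probes and the brightest 17 and 16. With normexp background correction the dimmest quartile had 186 higher and 1 lower, the opposite direction, and the brightest 34 and 26. Normexp was run with an offset of 50 added to every signal, above the dimmest quartile's median processed signal of 17.8. The part of the offset in the opposite direction was not tested. Over all quartiles the split was 92 higher and 153 lower with the processed signal, 109 and 118 with quantile normalization and 311 and 67 with normexp. The exposed arrays had the lower 75th percentile and median signal given above, and the part of this in the brightness pattern was not tested.

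**Figure D4:**
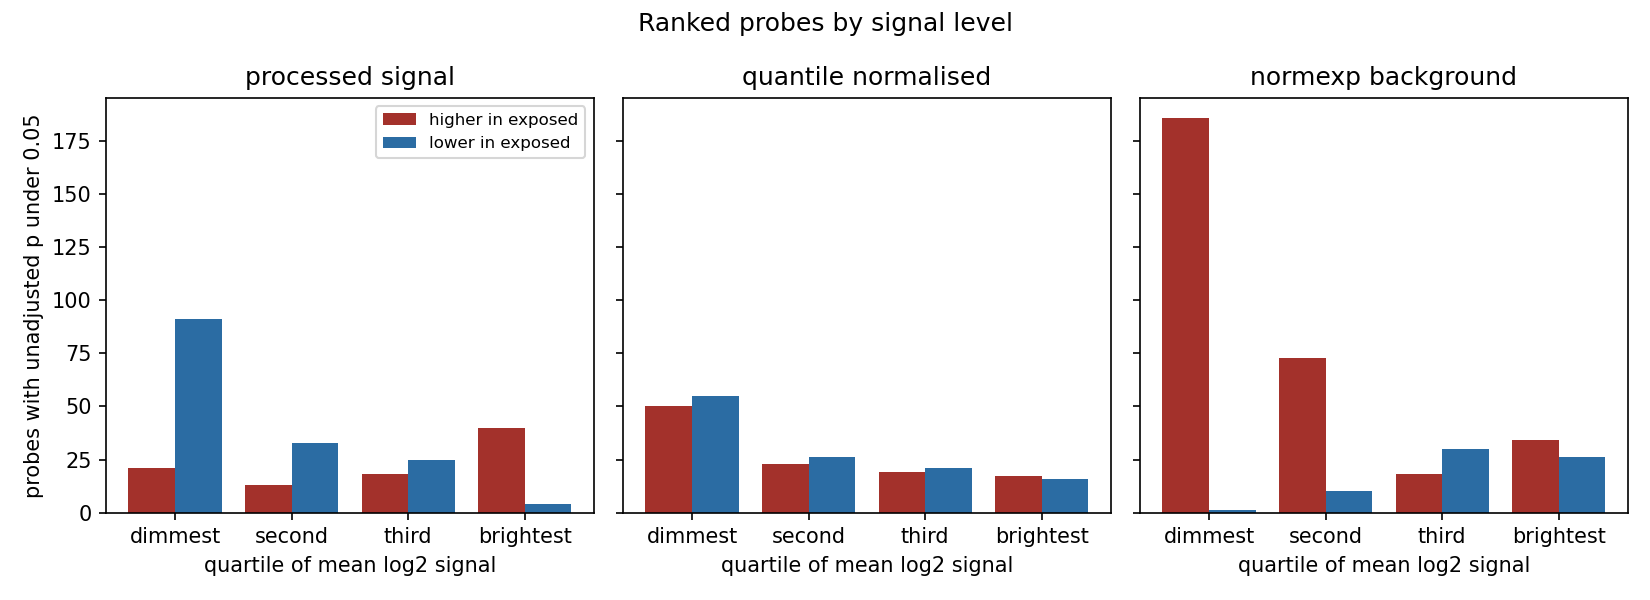
Number of probes with an unadjusted p under 0.05 in the pooled comparison, higher (red) or lower (blue) in exposed pools, by quartile of mean log2 signal, under 3 treatments of the signal. With the processed signal the dimmest quartile has 21 higher and 91 lower probes, with quantile normalization 50 and 55, and with normexp (offset of 50) 186 and 1.

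How much precision did pooling add? The standard error of the difference from control had a median of 0.191 with 6 arrays against 3, and of 0.224 with 3 against 3 in the same 9 arrays. The median over probes of the ratio of the errors was 0.831, and the pooled error was the smaller one in 97.5% of probes. By design alone, with an equal spread, the ratio would be 0.866. Against a comparison fitted with its own 6 arrays the ratio was 0.879 for 147 and 0.840 for 1470 µg/L, and the pooled error was smaller in 76.4% and 83.6% of probes. The pooled fit treats the doses as 1 side. In the fit that gives each dose its own mean, the same as used for 1 dose, the median ratio was 0.866. Both differences there use the same spread of a probe, so that ratio follows from the numbers of arrays. The control side stayed at 3 arrays in every case.

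The intervals narrowed accordingly. The half-width of the 95% interval had a median of 0.43 on the log2 scale (1.34-fold) pooled, and 0.51 (1.42-fold) for 1 dose. For 8597 of 9997 probes (86.0%) the pooled interval lay wholly within 2-fold of control, so that a shared change of that size was outside the interval. The interval did so for 7727 (77.3%) at 147 and 8072 (80.7%) at 1470 µg/L, and for 8523 (85.3%) pooled with a mean for each dose. These fits had no slide or replicate block. The pooled number was 8779 with the slide as a block and 8832 with the replicate number as a block. Within 1.5-fold the numbers were 5200 (52.0%) pooled, 3557 (35.6%) at 147 and 4020 (40.2%) at 1470 µg/L. The half-width exceeded 2-fold for 534 probes (5.34%) pooled and for 889 (8.89%) with 1 dose.

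In the terms of a power calculation, a probe of median error would need a true difference of 0.60 (1.51-fold) for a power of 80% at an unadjusted p of 0.05 in the pooled comparison. With 1 dose in the same 9 arrays it would need 0.71 (1.63-fold). A probe that changed alone had to pass the threshold divided by 9997, which at median error takes an observed difference of 3.26-fold pooled and 4.56-fold with 1 dose. For a power of 80% its true difference would have to be 2.02 (4.05-fold) pooled and 2.60 (6.05-fold) with 1 dose. In the fit with a mean for each dose the pooled values were 3.72-fold observed and 4.75-fold true. With only the 6 arrays of one dose and the controls, that figure was 8.62-fold at 147 and 9.06-fold at 1470 µg/L. An isolated 2-fold change in a probe of median error was thus below what these comparisons, fitted without blocks, could call. So was the 2.19-fold difference of DM10364P2, whose error was close to the median. Power was not computed for fits with a slide or replicate block. For a single value per array, an exact test of 6 against 3 has 84 splits and a smallest two-sided p of 0.0238, while 3 against 3 has 20 splits and a smallest p of 0.1.

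**Figure D5:**
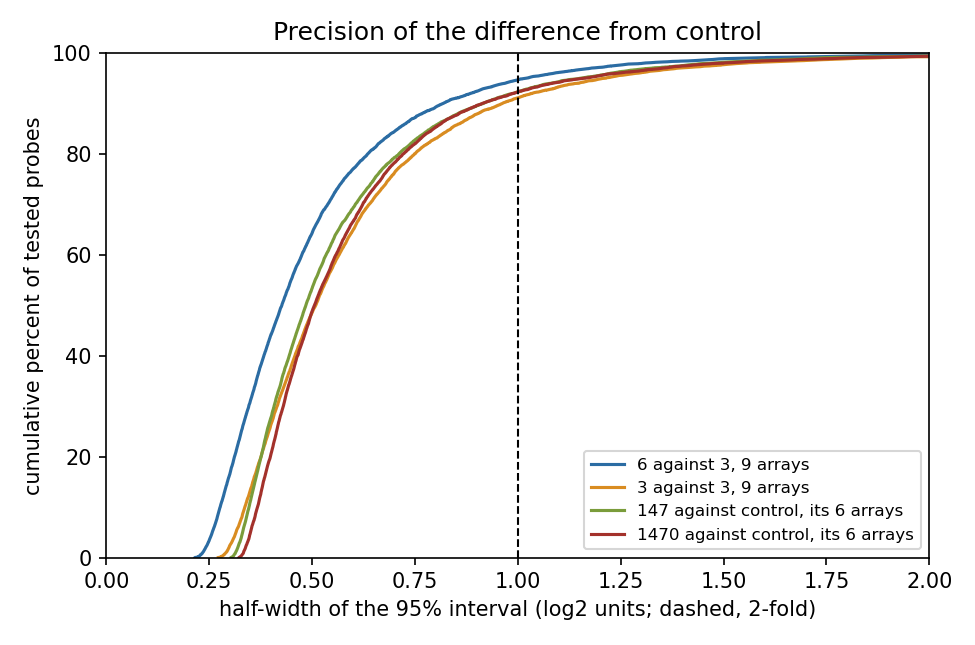
Cumulative percent of the 9997 tested probes (y axis) by half-width of the 95% interval of the difference from control (x axis, log2 units). Lines are the pooled comparison, 1 dose against control in the same 9 arrays, and each dose with its own 6 arrays. At the dashed line, a half-width of 2-fold, the pooled curve leaves out 5.34% of probes and the curve of 1 dose in 9 arrays 8.89%.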

How the data were processed

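One-colour Agilent arrays of Daphnia magna were analysed for control, 147 and 1470 µg/L (3 arrays each). The deposited scanner files hold linear intensity values per spot, which the authors extracted with Agilent Feature Extraction 11.5.1.1 and which the software corrected for background, per the file headers. Their spot flags (other columns of the deposited files) mark spots well above background, saturated or outlying; 0 probe spots were saturated and 17 outlying spots were left out. The authors' deposited log2 table, an alternative here, states no scale. Set against the scanner values, per array, it followed quantile normalised log2 signals, relative to each probe's mean over the 9 arrays, with r between 0.9996 and 0.9998 and slopes of 0.988 to 0.993. Its direction and scale were thereby settled and its exact centring stays unknown; its column medians were -0.03 to 0.01.

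Log2 processed signals were set relative to each array's 75th percentile over its probes, and spots of one probe were averaged (870 probes had 2 spots). Of the tested probes 9989 had values on all 9 arrays, and for 8 the arrays left out were missing in the fit. limma 3.58.1 in R 4.3.3 fitted 2 sides (6 against 3) for the pooled comparison and 3 group means for the others, with eBayes variances; tests were two-sided, and p-values were adjusted by Benjamini-Hochberg over 9997 probes. Where one side had no array well above background, folds are lower bounds, against the higher of the probe's own signal and the lowest signal well above background on each array. Single values per array were compared with exact permutation tests (scipy 1.17.1). Python 3.11.15, numpy 2.4.6, pandas 2.3.3 and matplotlib 3.10.9 were used. Scripts were tested on simulated data.

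Per comparison the 2 higher and 2 lower probes with the smallest p are named, 12 in all. The dose groups, lists and named-probe rule were chosen with earlier results of these data known. Gene lists could not be applied, because no probe was tied to a gene. The arrays came from 2 slides: replicates 1 and 2 of each group on one, replicate 3 on the other, so slide and group were balanced. Arrays of one number shared slide and row, and how the groups were placed along a row was not examined. The number of arrays limits the precision. Alternatives covered the fit, background correction, normalization, probe filter, slide and replicate blocks, variance model, array weights, the deposited values, the threshold and leaving out each array. The normexp background correction used the median spot signals and an offset of 50.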

Additional observations from a re-analysis of the deposited data

Results flagged for a closer look

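In 3 probes named for 1470 against 147 µg/L the 2 pooled doses lay on opposite sides of the control mean in every pool, on the log2 scale relative to each array's 75th percentile. In intensity units, where the control arrays were brighter on average, this did not hold for every pool. All were chosen for their difference between the doses, and in none did that difference pass (limma, adjusted p = 0.9996). DM12057P3 gave 49.2, 43.5 and 50.5 intensity units in controls, 45.4, 40.1 and 48.6 in the 147 µg/L pools and 26.9, 37.1 and 39.4 in the 1470 µg/L pools. On the relative scale its log2 difference between the doses was -0.63 (SE 0.145), from 0.28 above control at 147 to -0.35 at 1470 µg/L, and the pooled difference was -0.03.

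DM14725P3 was near background, with 11.6, 8.80 and 9.44 intensity units in controls, 5.38, 3.64 and 7.67 at 147 µg/L, where no pool was well above background, and 12.3, 15.1 and 14.0 at 1470 µg/L. Its fitted log2 difference between the doses was 1.13 (SE 0.218), the higher dose at least 1.76-fold above the lower one, and the pooled difference was 0.05.

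DM14866P1 gave 23.4, 15.02 and 20.1 intensity units in controls, 15.9, 14.3 and 18.3 in the 147 µg/L pools and 7.50, 11.2 and 13.5 in the 1470 µg/L pools, where 1 of 3 pools was well above background. On the relative scale it was 0.13 above control at 147 and -0.74 from control at 1470 µg/L. Its log2 difference between the doses was -0.87 (SE 0.200), and the pooled difference was -0.31 (SE 0.290). A search for single stray pools among the 6 exposed, over the 12 named probes and 3 array measures, marked none of these 15 sets of values.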

How the results depend on the processing

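The count of 0 calls held in 22 of 23 alternatives for each of the 4 comparisons, 9 of which left out 1 array. The lowest adjusted limma p over them was 0.327 pooled, 0.315 at 147, 0.294 at 1470 and 0.776 between the doses. With a threshold of unadjusted p under 0.05 and at least 1.5-fold there were 89 probes pooled, 177 at 147, 70 at 1470 and 88 between the doses. The pooled difference of DM10364P2 stayed between -1.29 and -0.94, of DM11327P1 between -0.96 and -0.57, of DM07418P3 between 0.57 and 0.76 and of DM01498P1 between 0.62 and 0.89.

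The counts at an unadjusted p under 0.05 moved more. For the pooled comparison, higher and lower probes numbered 161 and 252 without the probe filter, 96 and 91 with signal required on all 9 arrays, 168 and 199 with the slide as a block, 209 and 193 on slide 1 alone and 158 and 234 with array weights. Leaving out 1 array gave 52 to 255 higher (52 when control replicate 3 was left out, 54 for replicate 1 at 147, 166 for control replicate 2 and 255 for replicate 3 at 1470 µg/L) and 108 to 224 lower. In the same fits there were 100 to 237 higher and 96 to 313 lower at 147, 18 to 78 and 73 to 205 at 1470, and 24 to 288 and 77 to 321 between the doses; the largest numbers at 1470 and between the doses came when replicate 1 at 1470 µg/L was left out. Probes at least 2-fold higher and lower numbered 0 and 8 with normexp and 36 and 117 without the filter. Without 1 array they numbered 3 to 39 (39 without control replicate 2) and 42 to 72 (72 when control replicate 1 was left out, 69 for replicate 3 at 1470 µg/L). Probes without overlap numbered 202 and 14 with normexp and 129 and 54 with median scaling. They rose to between 95 and 327 higher and 99 and 264 lower when 1 array was left out, since fewer arrays have to separate.

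With normexp, run with an offset of 50, 3 dim probes changed sign. DM04870P2 went to 0.099 at 147 µg/L, and DM14725P3 to -0.091 and DM05508P3 to -0.094 between the doses. Their processed signals were below that offset on every array, and the cause of the change was not tested. The ratio of pooled to 1-dose interval half-width was 0.838. It was 0.890 with 3 group means against fits of 6 arrays, 0.871 with normexp, 0.791 on slide 1 alone, 0.8004 with array weights, and 0.796 to 0.860 when 1 array was left out; the cause was not tested.

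Permuting the sides within slides, an alternative added after the data were seen, as was that within numbers, gave exact permutation p-values of 0.111 for probes well above background and 0.0889 for both signal measures, none passing after adjustment.

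The replicate number marks slide and row, and whether it also pairs the samples was not tested. Correlations of same-numbered deviations ranged from -0.294 to 0.602, and in 9 of 18 cases an array matched its own number best. With the replicate block the pooled comparison had 0 calls and 216 higher and 236 lower probes at an unadjusted limma p under 0.05, against 92 and 153 without it.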

Other observations

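DM05508P3, the remaining probe named for 1470 against 147 µg/L, was dim. It gave 11.8, 14.7 and 8.01 intensity units in controls, 3.85, 3.21 and 5.56 at 147 µg/L, where no pool was well above background, and 9.08, 9.76 and 9.07 at 1470 µg/L. Its signal at 147 µg/L was at least 1.4-fold below control and at least 1.3-fold below 1470 µg/L. The fitted log2 differences were -1.06 for 147 µg/L against control and 0.94 for 1470 against 147 µg/L (limma, adjusted p = 0.990 and 0.9996).

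Weights were fitted to the 9 arrays by how closely each followed the mean of its side, exposed (both doses together) or control. They were lowest for replicate 2 at 1470 (0.556) and replicate 2 at 147 µg/L (0.626) and highest for replicate 3 at 147 µg/L (1.84).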
